A study of Mus musculus with 10 samples.

Results

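The genes described here encode plasma proteins of blood coagulation and complement. They were listed by name and comprise 39 genes for clotting factors, fibrinogen chains, contact factors, inhibitors, fibrinolytic proteins and complement components. Earlier results of these data were known when the list was made. The array annotation tied 48 of 45037 probe sets to exactly 1 of these genes, and these probe sets represented 36 of the 39. No probe set annotated to C3 or Cpb2 alone was found in the annotation used here. C4b appeared only on a probe set annotated to several genes, so no value is given for it. A filter on dim probe sets left 46 of the 48 for testing, which covered 35 genes. C6 and 1 of the 5 Masp1 probe sets did not pass that filter.

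RNA was measured in 10 whole mouse fetal livers, each from a different fetus at embryonic day 14.5 and each hybridised to its own expression array. Of these, 5 came from Zfp36l2 knockout (KO) fetuses and 5 from wild type (WT) fetuses, all on a mixed background of the b6 and 129 strains. The comparison asks how liver RNA differs when Zfp36l2 is missing. The Zfp36l2 protein belongs to the tristetraprolin family, which binds mRNAs at AU-rich elements and speeds their decay. How the allele was made, and which fetuses were littermates, is not given in the sources used here.

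Coagulation is a cascade of serine proteases and cofactors that ends with thrombin cutting fibrinogen into fibrin, while serpins restrain the proteases and plasmin dissolves the clot. Complement is a related cascade in which the classical, lectin and alternative routes meet at the C3 convertases, and the terminal components then assemble into a membrane pore. Hepatocytes make most of these proteins and secrete them into plasma. At midgestation the liver also houses blood formation, so blood cells at many stages lie between the hepatoblasts.

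The knockout label was checked first. The brightest Zfp36l2 probe set read 108, 82.3, 109, 103 and 108 in KO livers, against 396, 397, 596, 391 and 389 in WT livers. The genotypes did not overlap, and the log2 difference was -2.08 ± 0.13 (SE, n = 5 each), at a limma adjusted p of 3e-06. A second probe set of the gene was dim in both genotypes and another lay below 0. Hepatoblast and hepatocyte markers were bright in both genotypes, with their 11 measured genes summing to between 80736 and 90416 intensity units in KO livers and between 81239 and 90274 in WT livers. Afp averaged 16287 in KO and 16358 in WT livers, and Alb 15063 and 15407. Afp, Alb and Ttr ranked between 1 and 8 among all probe sets on every array, where quantile normalization gives each array the same set of values, and they made up 52.8% to 56.3% of the sum. Their levels therefore say little about how livers differ. The other 8 markers summed to between 37910 and 42659 units in KO livers and between 35516 and 42516 in WT livers. The livers numbered 5 stood apart from the others of their own genotype in many of the genes described here. For several of the genes the difference without one of the livers is given beside the difference over all 10.

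Most coagulation and complement genes already had a clear signal in the WT livers at this age. Intensities are quantile-normalised and linear, and an order of intensities is not an order of transcript amounts, because probe sets differ in how strongly they bind. For scale, 22 genes of other organs, such as lens, milk and sperm proteins, had WT means between -22.8 and 35.3 with a median of 5.27. In contrast, 13 of the 36 genes had a WT mean of at least 1000, a class that held 5.14% of all genes on the array. A further 7 lay between 300 and 1000, 11 between 100 and 300, and 4 between 16 and 100. The remaining gene, C6, averaged 3.76 in WT and was over the floor of 16 in 1 liver of each genotype.

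**Figure D1:**
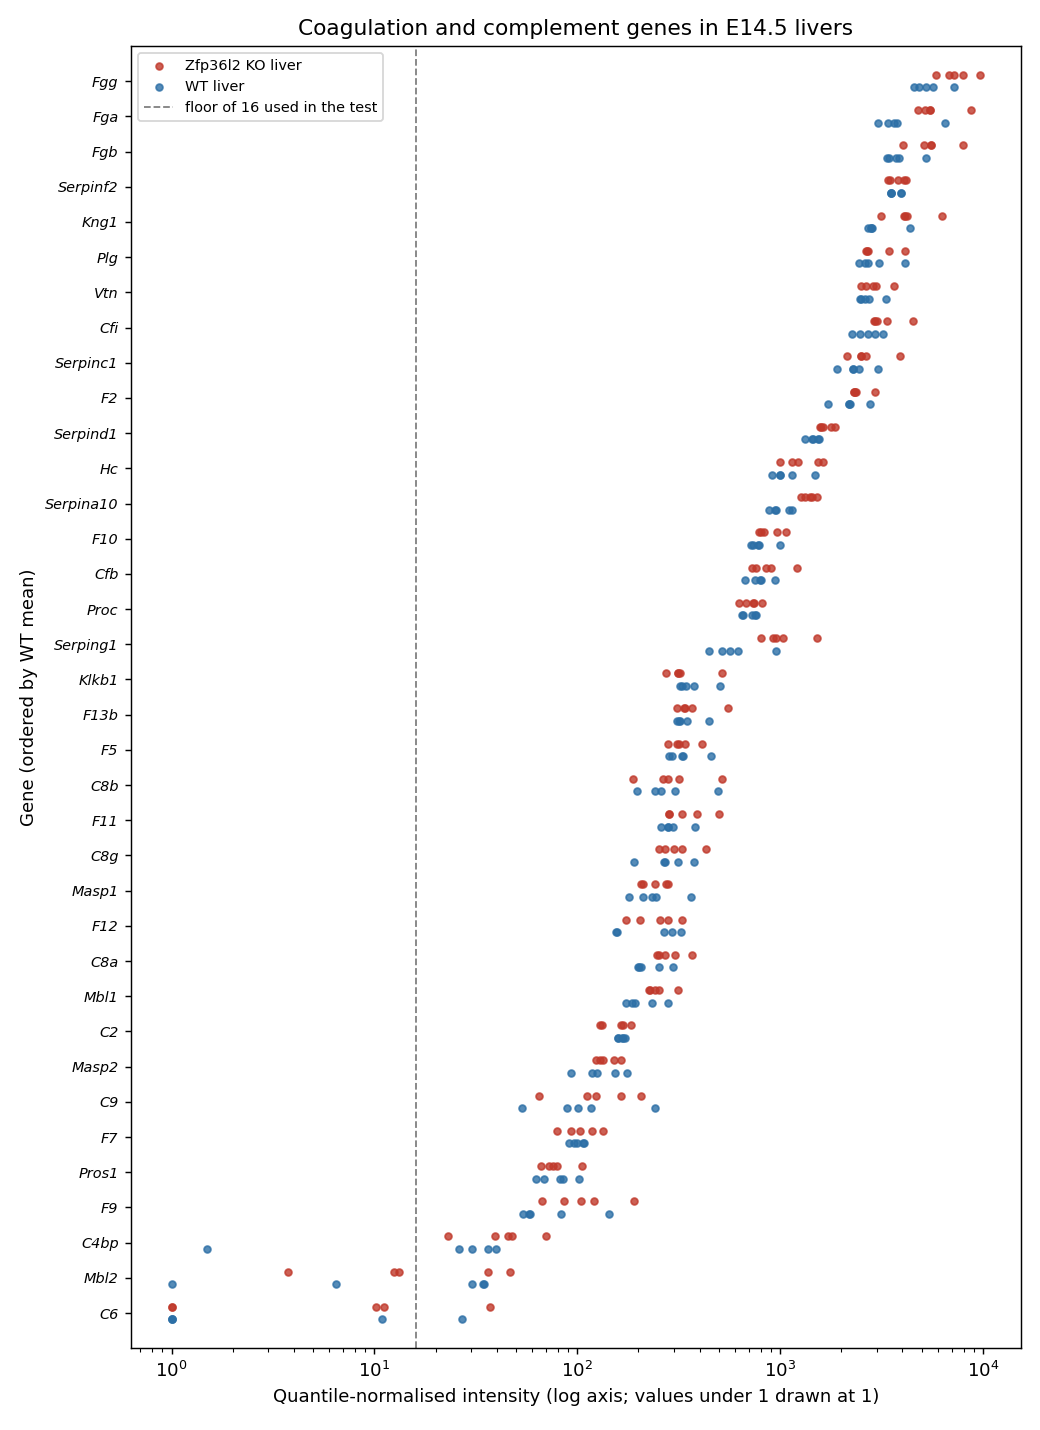
Normalised intensity (log axis) of the 36 genes with a probe set, ordered by mean in WT livers, with 1 point per liver, KO above WT, values under 1 drawn at 1 and a dashed line at the floor of 16. The fibrinogen chains lie at the top, between 3047 and 9653 intensity units, and Mbl2 and C6 lie around that floor.

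The brightest group was made up of the fibrinogen chains. Fgg averaged 5486 ± 1016, Fga 4051 ± 1375 and Fgb 3922 ± 761 in WT livers (SD, n = 5), and the ranges of these chains overlapped. They were followed by Serpinf2, which encodes the plasmin inhibitor alpha-2-antiplasmin, at 3678 ± 232. Kng1, the kininogen of the contact pathway, averaged 3102 ± 716, and Plg, the precursor of plasmin, 2981 ± 663. Prothrombin (F2) averaged 2203 ± 369.8 and antithrombin (Serpinc1) 2389 ± 410.3. The bright genes included a substrate, a protease and the inhibitors of clotting as well as the fibrinolytic arm.

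The other vitamin K dependent factors were dimmer. F10 averaged 803 ± 114 and the anticoagulant protease gene Proc 707 ± 52.9, whereas F7 averaged 100.5 ± 7.32, Pros1 79.9 ± 15.3 and F9 79.4 ± 37.5 in WT livers (SD, n = 5). The F10 value is that of its brightest probe set, and its other probe sets averaged 95.2 and 53.9 in WT livers. F7 is the partner of tissue factor, Pros1 the cofactor of activated protein C, and F9 the protease mutated in haemophilia B. Pros1 and F9 could not be ordered, because their ranges over the 5 WT livers overlapped.

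Complement genes spanned a similar range of intensity. Cfi, the protease that cleaves C3b and C4b, averaged 2716 ± 374 in WT livers, and Hc, which encodes C5, 1105 ± 225. Cfb, the protease of the alternative pathway convertase, averaged 794 ± 98.9. The terminal genes C8a, C8b and C8g lay between 231 and 299, and C9 was at 119.9 ± 71.1. Of the lectin pathway genes, Mbl1 averaged 213 ± 43.4, whereas Mbl2 averaged 20.9 ± 17.0 and was over the floor in 2 of 5 KO and 3 of 5 WT livers. C4bp, the inhibitor of the classical convertase, averaged 26.7 ± 15.0, with 4 of 5 WT livers over the floor.

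Between KO and WT livers, the log2 differences of the 35 genes tested ran from -0.13 to 0.77. Serpina10, which encodes the protein Z-dependent inhibitor of factor Xa, rose in KO livers. No other gene of the set passed the test in either direction. Most differences were above 0, and among genes with a mean of at least 100 the highest were those of Serping1, which encodes C1 inhibitor, and of Fga and Fgb. In whole livers, fewer cells of a type and less RNA per cell cannot be told apart.

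In numbers, limma, adjusted by Benjamini-Hochberg over every probe set tested, called 1 of the 46 probe sets higher in KO livers and 0 lower, at an adjusted p under 0.05. The same rule called 0.104% of the 27022 probe sets tested higher, and 0.104% lower. At an unadjusted p under 0.05, 9 of the 31 genes with a mean intensity of at least 100 were higher in KO livers and 0 were lower. Of all 6754 genes in that intensity class, 7.6% were higher and 7.76% lower by that rule. The livers of the genotypes did not overlap for 2 of the 31 genes, Serpina10 and Serpind1, both higher in KO livers. That happened for 1.87% of all genes in the class in the higher direction and for 2.28% in the lower direction.

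The log2 difference, KO minus WT, was above 0 in 31 of the 35 genes tested, with a median of 0.16. Over all 12744 genes tested it was above 0 in 50.1%, with a median of 0.00. All 13 genes with a mean of at least 1000 had a difference above 0, with a median of 0.23. However, the lowest, Serpinf2 at 0.04, turned to -0.0075 without both livers numbered 5. Plg, at 0.06, turned below 0 without KO liver 5 and without WT liver 3. In the same class of all genes 43.2% were above 0, with a median of -0.02. Most of these genes share a cell of origin and the same 10 livers, so their signs are not independent of each other. The median was 0.05, with 24 of 35 genes above 0, without KO liver 5. It was 0.10, with 25 of 35 above 0, without WT liver 3, and 0.25 without WT liver 5.

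**Figure D2:**
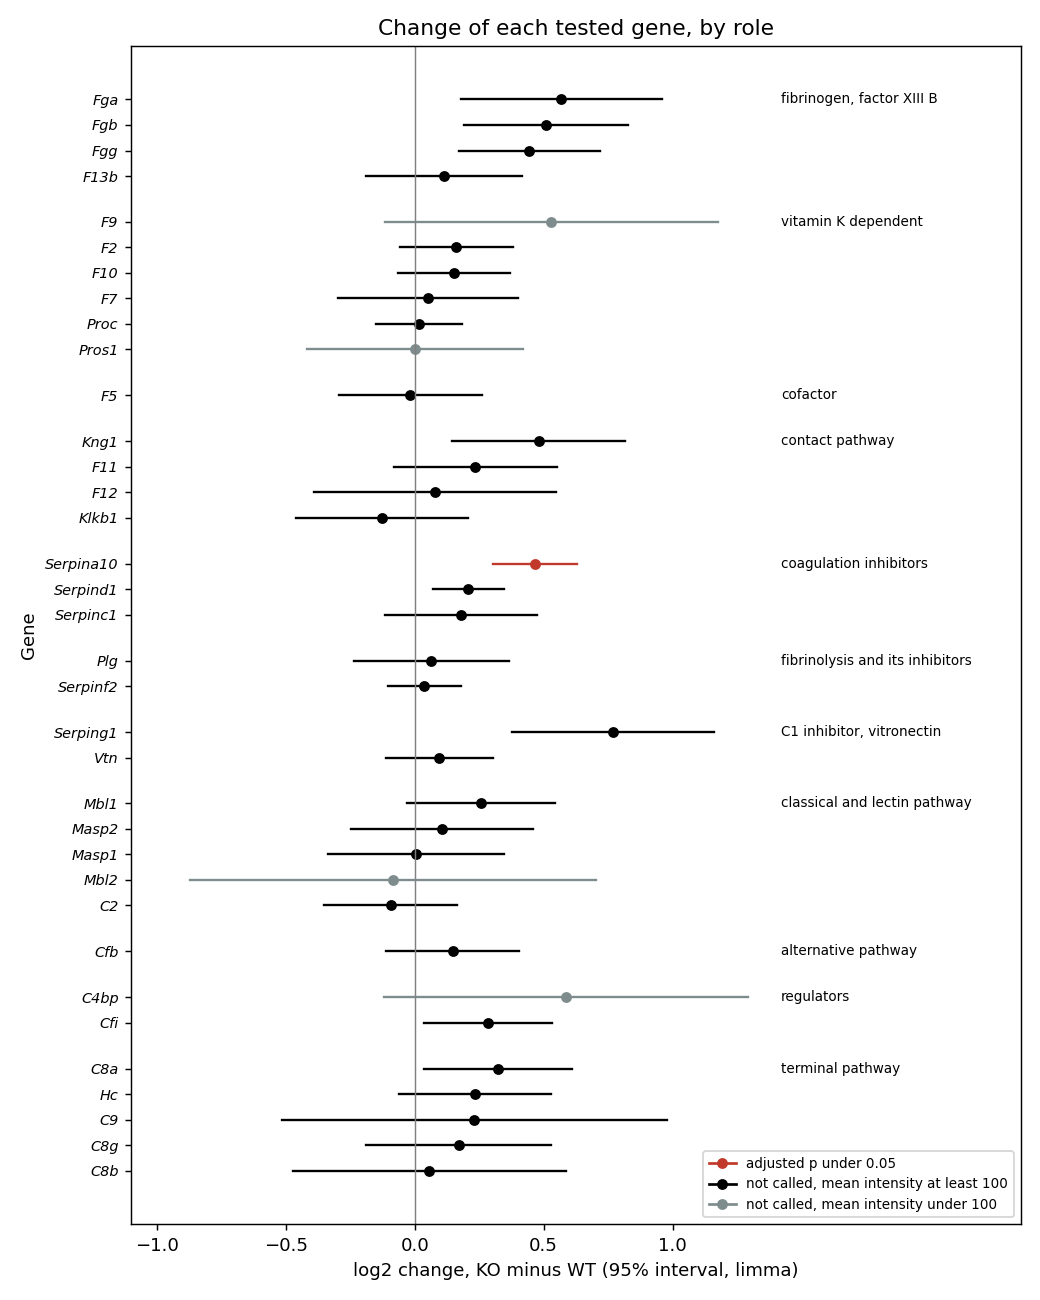
Log2 difference, KO minus WT, of each gene tested (point) with its 95% confidence interval (bar), grouped by the protein's role. Serpina10 at 0.47 was the gene whose adjusted p passed, and Klkb1 had the lowest value, -0.13.

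Among the coagulation inhibitors, Serpina10 read 1429.9, 1261, 1319.9, 1398 and 1513 in KO livers, against 1137, 946, 883, 956 and 1102 in WT livers. Every KO liver was above every WT liver. The difference was 0.47 ± 0.08 on the log2 scale (SE), a 1.38-fold higher level, with a limma adjusted p of 0.0296 and an exact permutation p of 0.00794, the smallest that 5 against 5 livers allow. Its probe set is of a type whose probes may match more than 1 transcript. The adjusted p missed the threshold, at 0.0641 to 0.0867, when KO liver 1, 4 or 5 or WT liver 2, 3 or 4 was left out, with log2 differences of 0.42 to 0.46. It also missed it, at 0.0612 to 0.26, with a floor of 32, a floor at the lowest positive value, no filter on dim probe sets, or no mean trend in the variance. Over all 20 alternatives it ran from 0.00632 to 0.26, with a difference above 0 in each.

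Serpind1 encodes heparin cofactor II, a thrombin inhibitor. It read 1616, 1777, 1576, 1588 and 1870.1 in KO livers, against 1556, 1434, 1319, 1453 and 1528 in WT livers. The genotypes did not overlap here either, although the gap between the lowest KO and the highest WT liver was narrow. The log2 difference was 0.21 ± 0.06 (SE; limma adjusted p = 0.243). Antithrombin, Serpinc1, the main serpin against thrombin and factor Xa, read 2499.9, 2134, 2646, 2489 and 3891 in KO livers and 2285, 2431, 1906, 2285 and 3035 in WT livers. Its genotypes overlapped, with the liver numbered 5 highest in each, and its log2 difference was 0.18 ± 0.14 (SE; limma adjusted p = 0.739). That difference was 0.04 without KO liver 5, 0.10 without WT liver 3 and 0.27 without WT liver 5.

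The 3 fibrinogen chains stood higher in KO than in WT livers by similar amounts, without passing the limma test of genotype alone over all 10 livers. Fgg, the gamma chain, read 6781, 5832, 7145, 7975 and 9653 in KO livers, against 4804, 5659, 5248, 4576 and 7145 in WT livers. Fga, the alpha chain, read 5479.8, 4764, 5492, 5182 and 8717 in KO livers, against 3381, 3748, 3615, 3047 and 6464 in WT livers. Fgb, the beta chain, read 5137, 4025, 5556, 5524 and 7975 in KO livers, against 3862, 3727, 3368, 3418 and 5232 in WT livers. In all 3 genes the overlap came from WT liver 5, which lay above at least 1 KO liver, whereas WT livers 1 to 4 lay below every KO liver.

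The log2 differences were 0.44 ± 0.13 for Fgg, 0.57 ± 0.18 for Fga and 0.51 ± 0.15 for Fgb (SE), with limma adjusted p of 0.208, 0.262 and 0.213. Without both livers numbered 5, an alternative chosen after the data were seen, they were 0.45, 0.61 and 0.49, with limma adjusted p of 0.0579, 0.00331 and 0.0426. Without WT liver 5 alone, Fga differed by 0.75 (limma adjusted p = 0.0237). Over all 20 alternatives the adjusted p ran from 0.0482 to 0.468 for Fgg, from 0.00331 to 0.529 for Fga and from 0.0241 to 0.468 for Fgb. F13b, the carrier subunit of the transglutaminase that cross-links fibrin, had a log2 difference of 0.11 ± 0.14 (limma adjusted p = 0.86).

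The 3 fibrinogen genes lie next to each other on chromosome 3 in the order Fgg, Fga, Fgb, and their promoters are shown because the 3 neighbours had similar differences between the genotypes. RefSeq (GRCm38.p6) places the 250 bases before the annotated starts at chr3:83025903-83026152 (plus strand) for Fga, chr3:83049864-83050113 (minus strand) for Fgb and chr3:83007474-83007723 (plus strand) for Fgg. Each is written 5′ to 3′ on the strand of the gene. Capitals mark matches to the HNF1 letters GTTAATNAT or the C/EBP letters TTGCNNAA on either strand, where N is any base. HNF1 and C/EBP are liver-enriched transcription factors.
Fga: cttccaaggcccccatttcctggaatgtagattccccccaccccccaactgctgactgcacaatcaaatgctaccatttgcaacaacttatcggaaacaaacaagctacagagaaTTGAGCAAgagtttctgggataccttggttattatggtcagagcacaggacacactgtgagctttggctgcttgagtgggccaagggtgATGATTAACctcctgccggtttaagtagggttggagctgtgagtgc
Fgb: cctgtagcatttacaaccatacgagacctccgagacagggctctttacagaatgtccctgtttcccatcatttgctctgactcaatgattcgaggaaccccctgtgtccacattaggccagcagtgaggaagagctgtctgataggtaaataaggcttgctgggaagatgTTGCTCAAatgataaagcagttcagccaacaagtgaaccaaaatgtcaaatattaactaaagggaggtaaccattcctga
Fgg: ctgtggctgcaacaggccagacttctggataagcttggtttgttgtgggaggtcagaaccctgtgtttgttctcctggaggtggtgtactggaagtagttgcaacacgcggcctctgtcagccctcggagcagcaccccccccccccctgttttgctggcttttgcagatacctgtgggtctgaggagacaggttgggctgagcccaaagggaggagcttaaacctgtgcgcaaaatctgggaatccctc
The Fga window held an HNF1 match 46 bases and a C/EBP match 135 bases upstream of the start, and the Fgb window a C/EBP match 80 bases upstream. No match to these letters was found in the Fgg window.

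Over the set, 29 of the 39 genes had a promoter in the RefSeq table. The HNF1 letters were found in 4 of them, C4bp, F13b, Fga and Hc, which is 13.8%, against 0.866% of the 27025 genes with such a window. The C/EBP letters were found in 7, which is 24.1%, against 10.8% of all. For HNF4, another liver-enriched factor, the letters CAAAGTCCA were found in 0 of the 29, against 0.451% of all, and CAAAGGTCA in 1, F7, or 3.45%, against 0.485%. These are matches of letters only, with no measurement of binding. The windows of F13b and Hc are shown as further examples with an HNF1 match near the start, at chr1:139501457-139501706 (plus strand) and chr2:35061413-35061662 (minus strand).
F13b: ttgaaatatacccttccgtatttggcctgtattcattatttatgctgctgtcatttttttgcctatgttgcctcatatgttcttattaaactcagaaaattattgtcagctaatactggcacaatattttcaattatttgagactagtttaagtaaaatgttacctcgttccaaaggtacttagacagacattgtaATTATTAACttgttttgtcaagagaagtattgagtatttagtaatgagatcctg
Hc: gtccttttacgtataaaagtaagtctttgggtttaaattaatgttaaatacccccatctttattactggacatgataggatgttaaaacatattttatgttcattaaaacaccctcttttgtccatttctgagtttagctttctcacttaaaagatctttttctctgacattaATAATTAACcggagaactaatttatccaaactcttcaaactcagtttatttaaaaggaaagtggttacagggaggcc
The match lies 54 bases upstream of the start in F13b and 77 bases in Hc.

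C1 inhibitor, the product of Serping1, is the serpin that blocks C1r, C1s, kallikrein and factor XIIa. Serping1 read 805, 957, 1026, 921 and 1521 in KO livers, against 517, 622, 445, 564 and 952 in WT livers. WT liver 5 lay above KO livers 1 and 4, and the other 4 WT livers lay below every KO liver. The log2 difference, 0.77 ± 0.18 (SE), was the highest of the set, but its limma adjusted p was 0.112. Without both livers numbered 5 it was 0.79 (limma adjusted p = 0.00682), and without WT liver 5 alone 0.94 (adjusted p = 0.0104). Without KO liver 5 alone, 0 probe sets of the whole set passed the limma test, so Serping1 did not pass there. Over all 20 alternatives the adjusted p ran from 0.00553 to 0.386.

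Vitronectin, Vtn, stabilises the inhibitor of plasminogen activators and binds the terminal complement complex. It read 2876, 2494, 2656, 2966 and 3629.9 in KO livers and 2727, 2510.2, 2474, 2620.1 and 3325 in WT livers. The genotypes overlapped, with a log2 difference of 0.10 ± 0.10 (SE; limma adjusted p = 0.821), and a second Vtn probe set also gave 0.10. Without KO liver 5 the difference of the first was 0.01, without KO liver 2 0.15, without WT liver 3 0.06 and without WT liver 5 0.17.

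**Figure D3:**
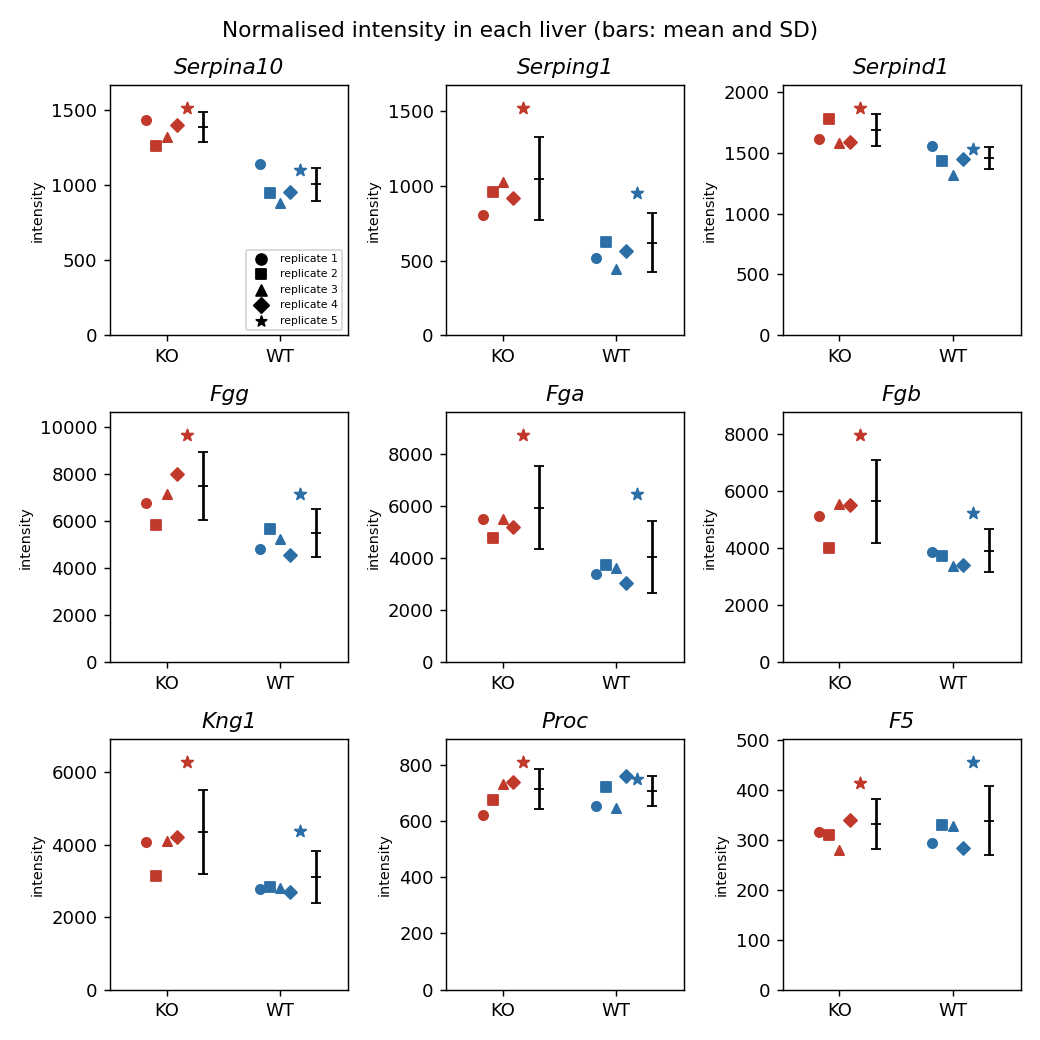
Normalised intensity in each liver for selected genes, KO livers left of WT livers in every panel, with a bar for the mean and SD of each genotype (n = 5). Symbols stand for replicate numbers, and the liver numbered 5 (star) is the highest of its genotype in most panels.

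In the contact pathway, Kng1 had the highest difference. Its brighter probe set read 4071, 3126, 4118, 4213 and 6285 in KO livers, against 2787, 2838, 2797, 2709 and 4381 in WT livers. WT liver 5 exceeded all but 1 KO liver, and WT livers 1 to 4 lay below all KO livers. The log2 difference was 0.48 ± 0.16 (SE; limma adjusted p = 0.276), and without both livers numbered 5 it was 0.47 (adjusted p = 0.0291, within a range of 0.0146 to 0.541 over all 20 alternatives). Kng1 did not pass the limma test without KO liver 5 alone. A second Kng1 probe set gave 0.40 over all 10 livers. The neighbouring gene Kng2 is a near-identical copy, so the signal may be shared between them and the value is uncertain for Kng1 alone. F11, F12 and Klkb1, the genes of factor XI, factor XII and plasma prekallikrein, had log2 differences of 0.23, 0.08 and -0.13, with limma adjusted p of 0.658 to 0.95.

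None of the 6 vitamin K dependent factors passed the test. F2 read 2312, 2350.3, 2309, 2334 and 2931 in KO livers and 2171, 2174, 1715, 2199 and 2757 in WT livers. KO livers 1 to 4 lay within a narrow band, KO liver 5 stood above them, and the genotypes overlapped. The log2 difference of F2 was 0.16 ± 0.10 (SE; limma adjusted p = 0.659, 95% confidence interval -0.06 to 0.38). It was 0.10 without KO liver 5, 0.07 without WT liver 3 and 0.25 without WT liver 5.

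Proc, the precursor of activated protein C, read 622, 675, 732, 740.0 and 811 in KO livers and 654, 723, 648, 760.2 and 749 in WT livers. The 2 genotypes covered nearly the same range, with a log2 difference of 0.02 ± 0.08 (SE) and a 95% confidence interval of -0.15 to 0.18. For F7, F9, F10 and Pros1 the log2 differences were 0.05, 0.53, 0.15 and 0.00, with limma adjusted p of 0.615 to 0.999. F9 had the widest interval of these, -0.12 to 1.17.

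F5, the cofactor of factor Xa, read 317, 309.7, 279.8, 340.5 and 414 in KO livers and 293, 329.8, 328, 283 and 456 in WT livers. KO and WT livers overlapped throughout, and the difference was -0.02 ± 0.13 (SE), with a 95% confidence interval of -0.29 to 0.26. A second F5 probe set gave 0.06.

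For fibrinolysis, Serpinf2 read 3400.0, 4146, 3803, 3473 and 4079.6 in KO livers and 3944, 3515, 3496, 3918 and 3515 in WT livers. Neither genotype was consistently above the other, and the liver numbered 5 was not the highest in either. The log2 difference was 0.04 ± 0.07 (SE), with a 95% confidence interval of -0.10 to 0.18. Plg had a log2 difference of 0.06 ± 0.14 (SE; limma adjusted p = 0.932).

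Among the complement genes, Cfi and C8a had the highest differences of those with a mean of at least 100, apart from Serping1. Cfi read 2931, 2890.3, 3005, 3338 and 4492 in KO livers and 2717, 2470.1, 2922, 2256 and 3212 in WT livers. WT livers 3 and 5 reached into the KO range, and the log2 difference was 0.29 ± 0.12 (SE; limma adjusted p = 0.422), or 0.17 without KO liver 5. C8a, a chain of the C8 component, read 271, 304, 247, 252.04 and 367 in KO livers and 199.7, 251.8, 201, 205 and 297 in WT livers. Its genotypes also overlapped, with a log2 difference of 0.32 ± 0.13 (SE; limma adjusted p = 0.435).

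Hc read 1217, 1138, 1001, 1619.6 and 1531 in KO livers and 1146, 998, 907, 996 and 1476 in WT livers. KO livers 4 and 5 and WT liver 5 were the high ones, and the log2 difference was 0.23 ± 0.14 (SE; limma adjusted p = 0.629), or 0.15 without KO liver 4. Cfb read 851, 761, 725, 901 and 1205 in KO livers and 807, 799, 749, 673 and 943 in WT livers. Its KO liver 5 exceeded the rest, and the log2 difference was 0.15 ± 0.12 (SE; limma adjusted p = 0.76). Without KO liver 5 it was 0.03, without WT liver 4 0.09, and without both livers numbered 5 0.10. Of the other terminal genes, C8b, C8g and C9 had log2 differences of 0.06, 0.17 and 0.23, with adjusted p of 0.812 to 0.969. C9, the subunit that forms the ring of the pore, had a 95% confidence interval from -0.52 to 0.98.

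The lectin pathway gene Masp1, a protease bound to mannose-binding lectin, read 274, 211, 241, 205 and 281 in KO livers and 180.2, 245, 210.4, 234 and 363 in WT livers. WT liver 5 was the highest of all 10, and the log2 difference was 0.00 ± 0.16 (SE), with a 95% confidence interval of -0.34 to 0.34. Its other tested probe sets gave 0.25, -0.10 and 0.27, none passing the test. Which Masp1 transcripts each probe set covers was not analysed here. Mbl1, Mbl2, Masp2 and C2 had log2 differences of 0.26, -0.08, 0.11 and -0.09, with adjusted p of 0.574 to 0.969. The 3 C2 probe sets disagreed in sign, at -0.09, -0.05 and 0.14. C4bp, dim in both genotypes, had a log2 difference of 0.59 ± 0.33 (SE; limma adjusted p = 0.611).

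A difference between livers of the same genotype ran through most of the set. KO liver 5 was the highest KO liver in 29 of the 31 genes with a mean of at least 100, and WT liver 5 the highest WT liver in 23. Both held in 22 genes, or 71.0%, against 8.50% of all 6754 genes in that class. KO liver 5 was the highest KO liver in 19.8% of all genes, and WT liver 5 the highest WT liver in 24.2%. At the other end, KO liver 2 was the lowest KO liver in 17 of the 31 genes and WT liver 3 the lowest WT liver in 18. Of all 6754 genes in that class, KO liver 2 was the lowest in 23.4% and WT liver 3 in 17.2%.

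The median log2 deviation of the 31 genes from their means over the 10 livers was 0.04, -0.12, 0.01, 0.04 and 0.49 in KO livers 1 to 5, against -0.13, -0.08, -0.27, -0.19 and 0.26 in WT livers 1 to 5. KO livers 1, 3, 4 and 5 lay above WT livers 1 to 4, while KO liver 2 fell among the WT livers and WT liver 5 above 4 of the KO livers. The labels give these numbers as names of separate fetuses, and nothing in them ties KO liver 5 to WT liver 5. Over all tested probe sets, deviations of these livers from their genotype means correlated at 0.13, the highest of any KO and WT liver.

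**Figure D4:**
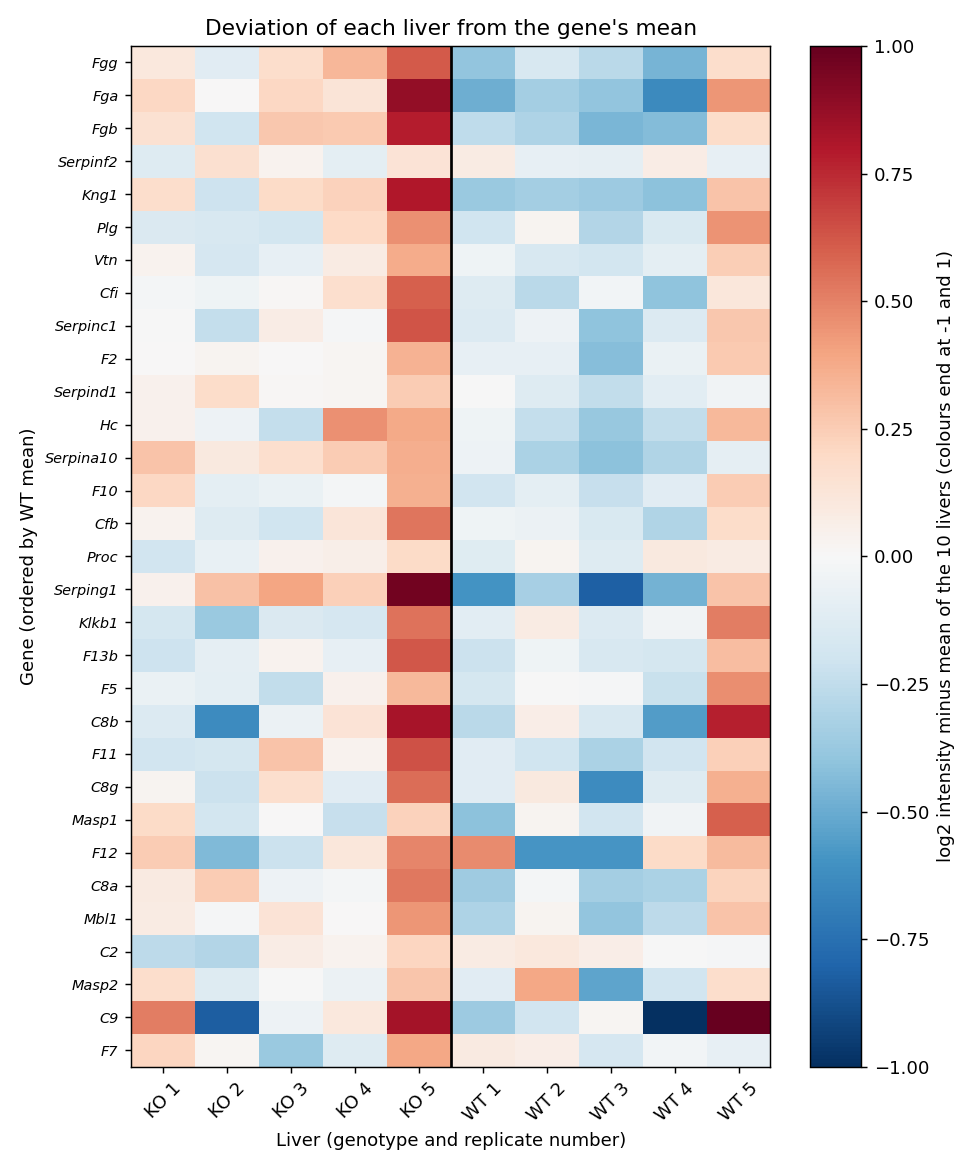
Log2 deviation of each of the 31 genes with a mean of at least 100 (row) from its mean over the 10 livers, for KO livers left of WT livers (columns). Most genes are at their highest of each genotype in the columns of KO liver 5 and WT liver 5.

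The size of this excess differed from gene to gene. C8b in liver 5 was 1.96 times the mean of the other KO livers and 1.98 times that of the other WT livers. For C9 these ratios were 1.77 in KO and 2.67 in WT. Fga had ratios of 1.67 in KO and 1.87 in WT, and Serping1 1.64 and 1.77. At the low end, Serpina10 had 1.12 in KO and 1.12 in WT, Serpind1 1.14 and 1.06, Proc 1.17 and 1.08, and Serpinf2 1.1 and 0.945. The coefficient of variation was 7.07% in KO and 10.9% in WT livers for Serpina10, and 7.77% and 6.35% for Serpind1. For Fga it was 26.8% and 33.9%, and for C8b 39.1% and 38.9%.

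Other gene lists moved with the livers in different ways. Acute phase genes outside the set (5 tested: Cp, Hpx, Itih4, Hp and Saa3) had median deviations of 0.19, 0.01, 0.42, 0.46 and 1.31 in KO livers 1 to 5, against -0.63, -0.28, -0.64, -1.19 and 0.67 in WT livers 1 to 5. The liver numbered 5 was again the highest of each genotype. Hp, which encodes haptoglobin, read 373, 179.9, 631, 494 and 1398 in KO livers and 124, 270.2, 199, 114 and 641 in WT livers. Saa1, Saa2 and Orm1, further acute phase genes, averaged under the floor of 16 in WT livers. The sum of the 8 acute phase genes ran from 4137 to 9532 in KO livers and from 2429 to 5091 in WT livers. All 5 tested genes had a difference above 0, with a median of 0.96, and 0 passed the limma test, while 4 were higher at an unadjusted p under 0.05. Over all 12744 genes tested, 761 were higher and 722 lower by that unadjusted rule.

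Over the 8 hepatoblast and hepatocyte markers other than Afp, Alb and Ttr, the median deviations were 0.01, -0.03, -0.02, 0.05 and 0.18 in KO livers 1 to 5, against -0.08, -0.06, -0.14, -0.04 and 0.08 in WT livers 1 to 5. The liver numbered 5 was the highest of each genotype here as well. Of all 11 markers, none averaged under the floor, and KO liver 5 and WT liver 5 were both highest in 5. The median log2 difference between genotypes was 0.09 over the 8 markers, all of them above 0, and 0.03 over the 11, with 0 of 11 called by limma and 2 higher at an unadjusted p under 0.05. Ahsg, which encodes fetuin-A, was among those higher in liver 5. It read 4255, 3432, 4479, 3944 and 6337 in KO livers and 3356, 4181, 3002, 3675 and 6487 in WT livers.

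Markers of blood cells also differed between livers. The 8 neutrophil markers had median deviations of 0.44, -0.05, 0.86, 0.54 and 0.88 in KO livers 1 to 5, against -1.32, 0.20, -0.86, -1.54 and 0.91 in WT livers 1 to 5. Their sum ran from 13496 to 25449 in KO livers and from 5777 to 26590 in WT livers, and none averaged under the floor in WT. Of these 8, 6 had a difference above 0, with a median of 1.05, and limma called 0, with 6 higher at an unadjusted p under 0.05. The macrophage markers (7 of 8 tested, with Cd163 near 0) summed to between 4332 and 5166 in KO and between 2064 and 5158 in WT livers. All 7 had a difference above 0, with a median of 0.31, and limma called 0, with 2 higher at an unadjusted p under 0.05. The part of these cells in the differences of the coagulation and complement genes was not tested.

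**Figure D5:**
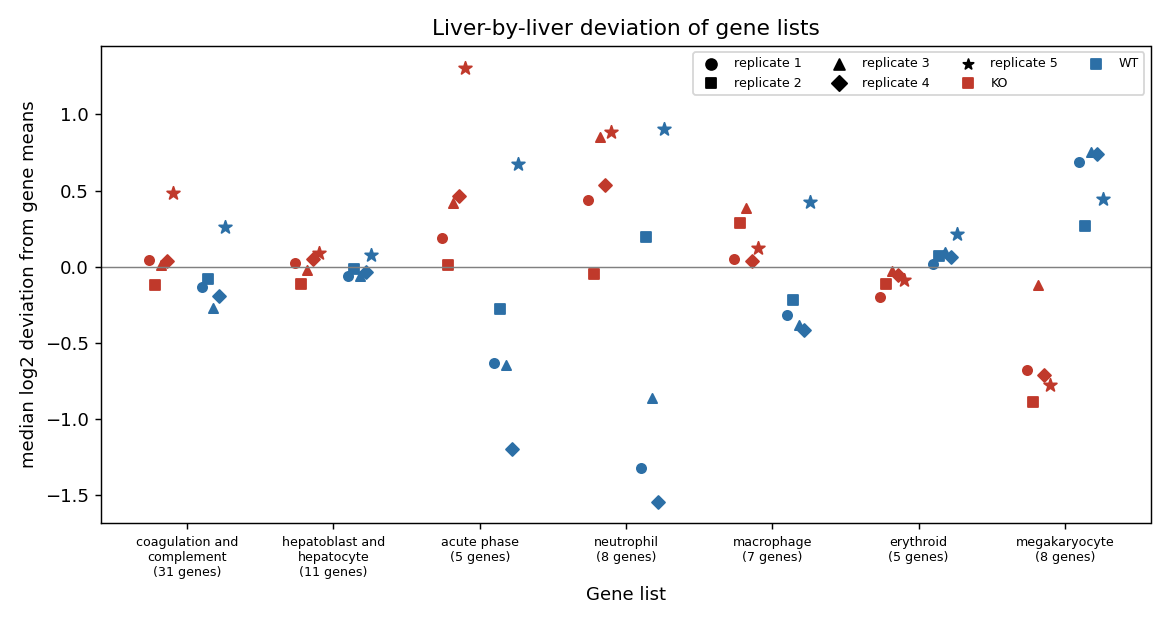
Median log2 deviation from the gene means in each liver for the coagulation and complement genes (31 genes) and for lists of other genes, with KO livers left of WT livers in each list and symbols for replicate numbers. The liver numbered 5 (star) is the highest of its genotype for the coagulation and complement, hepatoblast, acute phase and neutrophil lists. The hepatoblast list is drawn with all 11 genes, Afp, Alb and Ttr included.

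The 5 tested erythroid markers had a median log2 difference of -0.21, with 0 called by limma and 4 lower at an unadjusted p under 0.05. Over all 12744 genes tested, 722 were lower and 761 higher by that unadjusted rule. WT liver 5 was the highest WT liver in all 5 erythroid markers, and KO liver 5 the highest KO liver in 0. The probe set used for Hba-a1 lay near 0, averaging 2.24 in KO and -3.33 in WT livers, whereas Slc4a1 averaged 7896 and 7929. Whether that probe set reports the level of Hba-a1 was not tested, so no level is read from it. The sum of the erythroid markers ran from 15952 to 18825 in KO and from 16439 to 21788 in WT livers. All 8 megakaryocyte markers had differences below 0, with a median of -1.14. The limma test called 6 of them lower, against 22 of all 12744 genes tested. The sum of these 8 markers ran from 1648 to 2651 in KO and from 3907 to 5669 in WT livers. Endothelial markers (6 tested) summed to between 919 and 1104 in KO and between 825 and 973 in WT livers. Of these, 5 had a difference above 0, with a median of 0.21, and limma called 0, with 2 higher at an unadjusted p under 0.05. Stellate and mesothelial markers (6 of 8 tested, with Des and Wt1 near 0) summed to between 1659 and 3074 in KO and between 2022 and 2325 in WT livers. Their differences were all above 0, with a median of 0.12, and limma called 0, with 0 at an unadjusted p under 0.05. The part of any of these lists was not tested.

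Other genes of the same pathways were read from a separate list of 44, of which 38 had a probe set and 33 were tested. None passed the limma test over all probe sets, and 21 of the 33 had a difference above 0, with a median of 0.09. At an unadjusted p under 0.05, 8 were higher and 3 lower in KO livers, against 761 and 722 of all 12744 genes tested. The 3 C1q chains, which are made largely by macrophages, were among the 8 higher ones, beside the macrophage markers given above. The part of macrophages in the C1q differences was not tested. C1qa averaged 256 ± 33.7 in KO and 193 ± 35.5 in WT livers, a log2 difference of 0.42, with 0.43 for C1qb and 0.38 for C1qc (limma adjusted p of 0.143 to 0.338). A2m, the protease inhibitor alpha-2-macroglobulin, read 2105, 1530.4, 1837, 2370.1 and 5492 in KO livers and 1168, 1233, 900.3, 982 and 2890.3 in WT livers. It too was highest in the liver numbered 5 of each genotype, and its log2 difference was 0.88 ± 0.32 (SE; limma adjusted p = 0.354).

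Of the lower genes, Mcfd2 was the one whose genotypes did not overlap, which happened in this direction for 186 of all 12744 genes tested. Together with Lman1, Mcfd2 carries factors V and VIII out of the endoplasmic reticulum. Mcfd2 read 586, 644, 623, 589 and 691 in KO livers, against 777, 807, 719, 759.9 and 961 in WT livers. Every KO liver was below every WT liver, and the log2 difference was -0.36 ± 0.08 (SE; limma adjusted p = 0.0839). Lman1 itself had 0.10 (adjusted p = 0.674). Vwf, the carrier of factor VIII made by endothelial cells and megakaryocytes, had -0.97 ± 0.24 (adjusted p = 0.125). The megakaryocyte markers given above were all below 0, whereas 5 of 6 endothelial markers were above 0. The part of either cell type in the Vwf difference was not tested. Cd59a, the cell surface inhibitor of the membrane attack complex, had -0.43 ± 0.11 (adjusted p = 0.134). Vkorc1 and Ggcx, genes of the vitamin K cycle through which several of the clotting factors are modified, had 0.03 and 0.24 (adjusted p of 0.938 and 0.617).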

How the data were processed

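For each of the 10 fetal livers the authors deposited linear intensities, with 1 value for every probe set. The labels' protocols name Qiagen RNeasy columns and a one-cycle Affymetrix labelling kit used on 1 µg of RNA per liver, and no source used here names the software or scaling behind the intensities. Their linear scale was inferred from the values, 21.5% of which are at or below 0. Array medians lay up to 1.28-fold apart.

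Intensities were quantile-normalised, values under 16 were set to 16 and log2 was taken. This floor replaced one at the lowest positive value used in an earlier treatment of these data, which turns dim values into large negative log2 values. Probe sets under the 40th percentile of mean intensity were left out. KO was compared with WT by a two-sided test in limma 3.58.1 (R 4.3.3), using lmFit and then eBayes with a mean trend, with Benjamini-Hochberg adjustment over 27022 probe sets and a threshold of 0.05. Single genes also had a two-sided exact permutation test. The fit was also run on simulated data with noise drawn separately for each probe set. That simulation does not cover variation between livers that many genes share. A gene is represented by its brightest probe set, named through GEO's platform annotation. Precision is limited by how many livers were arrayed.

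The genes and lists were chosen with earlier results of these data known. Values in every liver are given for the brightest gene of each role, called genes, the 8 highest and 4 lowest absolute differences among genes with a mean of at least 100, and genes without overlap there. Ahsg, Hp, A2m and Mcfd2 were named after their values were seen. Genotype and number come from the sample titles. The numbers were not taken to pair livers, since the labels use them only to name separate fetuses. Deviations of same-numbered livers from their genotype means correlated at 0.031 to 0.131 (over 0.1 in 1 of 5 pairs). For livers of unlike number the range was -0.096 to 0.074. A shared litter or batch behind a number was not tested. Alternatives covered normalization, floor, offset, filter, variance model, array weights, the number as a block, and livers left out. Promoters came from RefSeq (GRCm38.p6). Tables and figures were made with Python 3.11.15, pandas 2.3.3, numpy 2.4.6 and matplotlib 3.10.9.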

Additional observations from a re-analysis of the deposited data

Results flagged for a closer look

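In 6 of 70 groups of 5 livers, 1 liver lay further from the others than Dixon's critical value allows. Chance gives about 1 in 20 such groups, or 3.5 here, and genes of the set are not independent of each other. All 6 were high values of the liver numbered 5. For Fga, KO liver 5 stood at 13.1 on the log2 scale with the nearest other KO liver at 12.4, and WT liver 5 at 12.7 with the nearest other WT liver at 11.9. For F2, KO liver 5 stood at 11.5 with the nearest at 11.2, and for Klkb1, KO liver 5 at 9.01 with the nearest at 8.32. For Kng1, WT liver 5 stood at 12.1 with the nearest at 11.5, and for F10, WT liver 5 at 9.96 with the nearest at 9.62.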

How the results depend on the processing

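Over 20 alternatives, the 18 named genes gave 360 single values, of which 324 kept their direction and their side of the threshold, 10 lost and 11 gained a call, and 15 changed sign. Over all probe sets, 56 were called (28 higher, 28 lower). This count was 12 with a floor at the lowest positive value, 12 with a floor of 32, 6 with no filter on dim probe sets, 9 without trend, 85 with array weights and 127 with the replicate block, and ran from 13 to 148 with livers left out. With median scaling in place of quantile normalization, 58 were higher and 23 lower, and the median of the tested genes of the set was 0.23 with 0.05 over all probe sets. The 1 called probe set of the set became 0 with either other floor, with no filter and without trend, 7 with the replicate block (Serpina10, Serping1, Kng1, Fga, Fgb and Fgg, with limma adjusted p of 0.00553 for Fga, 0.0241 for Fgb and 0.0482 for Fgg), and 0 to 6 with livers left out. Without KO liver 5, 0 were called, and without WT liver 5 the 4 called were Fga, Kng1, Serpina10 and Serping1. Without both livers numbered 5, chosen after the data were seen, there were 6, in Fga, Fgb, Kng1, Serpina10 and Serping1, of 104 in all. The numbers name separate fetuses and were not taken as pairs, with 4 KO and 3 WT livers closest to their own number. The median over tested genes stayed above 0 in every alternative, from 0.05 (without KO liver 5) to 0.25 (without WT liver 5). Of the 35 tested genes, 22 kept their sign in every alternative and 13 changed it in at least 1. Without KO liver 5 these were C8b (-0.14, against 0.06 with all livers), F13b (-0.03, against 0.11), F12, F7, Masp1, Plg and Proc, and without WT liver 4 they included C9 (-0.02, against 0.23). Mbl2 (-0.08) was 2.43 with the floor at the lowest positive value. Among the 18 named genes, F5 (-0.02) was 0.052 with median scaling and ran from -0.099 to 0.096 with livers left out, Masp1 (0.00) from -0.099 to 0.15, Proc (0.02) from -0.030 to 0.065, and Serpinf2 (0.04) from -0.0075, without both livers numbered 5, to 0.073. The cause of these changes was not tested. Signal near background limits what can be read for C6, Mbl2 and C4bp.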
